A study of Mus musculus with 27 samples.

Results

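Control embryoid bodies were compared at day 2 and day 0 of differentiation, the interval in which mouse embryonic stem cells leave the naive state. The arrays were chosen by their titles, which name the control hairpin and the day, and they make up 4 of the 27 arrays of the series, 2 at day 2 and 2 at day 0. All cells were of the AB2.2 mouse embryonic stem cell line and carried a lentivirus with enhanced green fluorescent protein and a short hairpin RNA (shRNA). In these 4 arrays the shRNA was directed against firefly luciferase, which mouse cells lack, so the day 0 cells carried the virus too. Transduced cells were sorted on the fluorescent protein, which makes them a sorted pool, and were then aggregated in hanging drops. Both days lie before the aggregates were plated. A second arm, used here only for comparison, carried an shRNA against Sox17 and had 2 arrays at day 2 and 1 at day 0. Per the labels the arrays of a group are biological replicates. Each array gives a log2 expression value for each probe set, and a gene was read from 1 probe set, so all levels and differences below are on the log2 scale, where 1 unit is 2-fold.

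Naive embryonic stem cells resemble the epiblast of the blastocyst before implantation. Leukaemia inhibitory factor (Lif) acts through the receptor chains Lifr and Il6st on the transcription factor Stat3, and together with a network around Oct4 (the product of Pou5f1), Sox2, Nanog, Esrrb and Klf factors it keeps these cells self-renewing. On differentiation, signals of the Fgf and Erk pathway help to take the network apart, the cells pass through a formative state with raised Otx2 and de novo DNA methyltransferases, and they come to resemble the epiblast after implantation. Embryoid bodies also form an outer layer of primitive endoderm, whose visceral derivative takes up material through the receptors cubilin and megalin.

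Of the 13297 genes tested, 32.1% were called changed at an adjusted p below 0.05 (limma, Benjamini-Hochberg): 16.6% were higher and 15.4% lower at day 2. At least 2-fold, 4.24% were higher and 4.78% lower. That balance turned when each array was centred on its median, with 644 genes at least 2-fold higher and 573 lower, in place of 564 and 636. Without either second replicate the number called higher was 1421 or 1458 in place of 2212. Across genes the 2 arrays of a day were close, with correlations of 0.9935 at day 2 and 0.9946 at day 0. The 18S ribosomal RNA probe set was less alike, at 9.63 and 8.77 at day 2 and 9.11 and 10.84 at day 0. Bacterial spike-in probes (bioB) read 9.32 and 9.23 at day 2 and 9.21 in both day 0 arrays, and the difference between 3′ and 5′ actin probe sets, a sign of RNA integrity, was 0.398 and 0.465 at day 2 against 0.379 and 0.335 at day 0. Stem cell markers were above the median of all values (5.53) on all 4 arrays, 5 of 5. Markers of trophoblast (4), blood (3) and mesoderm (2) were all at or below it in at least 1 array of each day. The summed level of 7 fibroblast markers, which feeder cells would bring, was 37.8 and 37.6 at day 2 against 35.1 and 35.7 at day 0, and was thus higher at day 2. Of these markers the collagen genes Col1a1 and Col3a1 and the proteoglycan gene Lum lay between 3.67 and 4.50. Col1a2 and Dcn were above the median of all values on all 4 arrays. Col1a2 read 7.07 and 6.70 at day 2 against 6.69 and 7.04 at day 0. Dcn read 6.30 and 6.35 at day 2 against 5.66 and 5.92 at day 0, and Postn 5.12 and 5.17 against 5.21 and 5.22. Thy1, a surface protein gene, read 6.32 and 6.31 at day 2 against 5.40 and 5.20 at day 0 (1.01, limma adjusted p = 5.49e-05). Of a longer list of 19 fibroblast genes, 2 rose (Thy1 and S100a4, a calcium-binding protein gene, by 1.62) and 2 fell (Fn1 and Vim), with a median of 0.17. Their part in the results was not tested. These are bulk samples, in which fewer cells of a type and less RNA per cell cannot be told apart.

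The plot of all genes shows the spread of the day 2 minus day 0 difference over the range of levels.

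**Figure D1:**
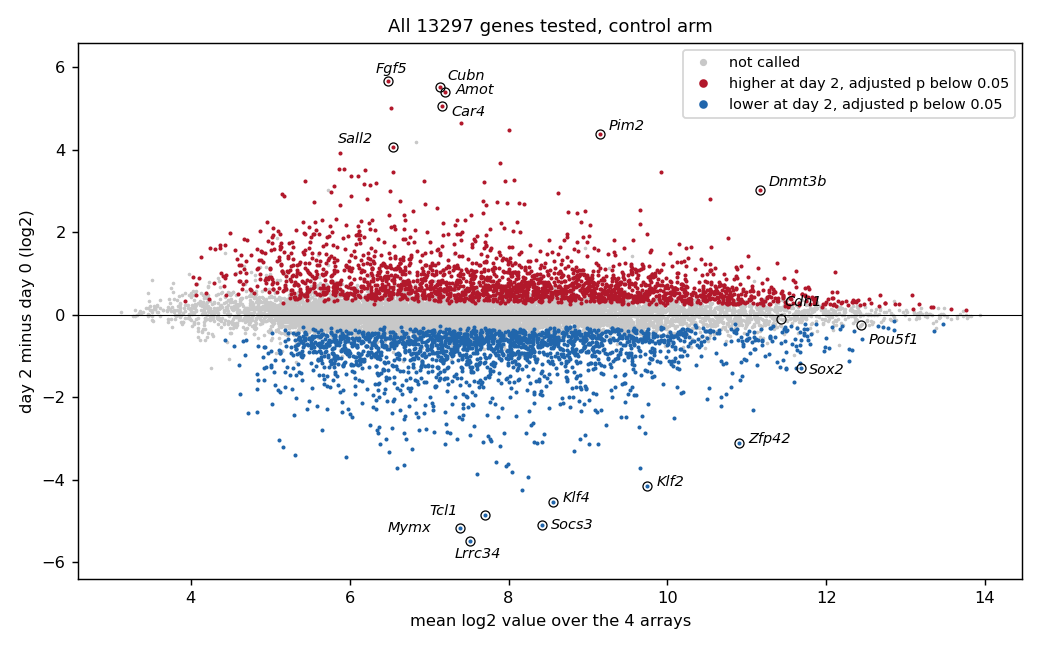
Difference between day 2 and day 0 of the control arm (log2, vertical axis) against the mean log2 value over the 4 arrays (horizontal axis), 1 point per gene. Red points were called higher and blue points lower at day 2 (limma, adjusted p below 0.05), grey points were not called, and circled genes are named. Fgf5, Cubn and Amot lie highest and Lrrc34, Mymx and Socs3 lowest, while Pou5f1 and Cdh1 lie near 0.

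The 12 largest rises ran from 5.67 to 3.54. The largest was that of Fgf5, a growth factor gene that marks the epiblast after implantation. It read 9.31 and 9.32 at day 2, against 3.69 and 3.61 at day 0, a difference of 5.67 ± 0.36 (SE; 50.7-fold, adjusted p = 2.22e-09). Cubn (cubilin) followed at 5.51 ± 1.17, Amot (angiomotin, which binds Yap in the Hippo pathway) at 5.41, Car4 (a membrane carbonic anhydrase) at 5.06 and Lpar4 (a lysophosphatidic acid receptor) at 5.01. Another probe set of Amot gave -0.17, and the median over its probe sets 2.26. The other probe sets of Fgf5 and Cubn gave 2.85 and 4.43. Dab2, an endocytic adaptor, rose by 4.66 (2.01 with the median over its probe sets), Srgn, the proteoglycan serglycin, by 4.47, Pim2, a survival kinase, by 4.39 and Sall2, a zinc finger factor, by 4.08. Irs4, an insulin receptor substrate, rose by 3.94, Lrp2 (megalin) by 3.68 and Tmem54, a membrane protein gene, by 3.54.

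Among called genes whose arrays did not overlap, the 12 largest falls ran from -5.49 to -3.72. Lrrc34, a leucine-rich repeat gene, read 4.75 and 4.80 at day 2, against 10.29 and 10.23 at day 0 (44.8-fold lower, adjusted p = 1.35e-09). Mymx, known in muscle for the fusion of myoblasts, fell by 5.16, and Socs3, the feedback inhibitor of Lif signalling, by 5.09. Of the other 9, 6 belong to the list of naive pluripotency genes described next (Tcl1, Klf4, Klf2, Tfcp2l1, Tet2 and Fbxo15). The remaining ones were AU018091, whose role is not described here, at -4.25, Cdyl2, a chromodomain protein gene, at -3.82, and Tfap2c, a transcription factor of trophoblast and germ cells, at -3.72. Another probe set of Cdyl2 gave -0.04.

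The naive network was lower as a group. Of 26 naive pluripotency genes measured, 24 fell and 0 rose, against 15.4% and 16.6% of all genes, and all 26 read lower in both day 2 arrays than in both day 0 arrays, as did 32.2% of all genes (35.9% read higher in both). Their median difference was -2.74, against 0.02 over all genes tested. Klf4, a Stat3-responsive Krüppel-like factor, read 6.16 and 6.42 at day 2, against 10.75 and 10.92 at day 0 (-4.55 ± 0.45, adjusted p = 4.29e-07). Klf2, a related factor held up by Erk inhibition, read 7.58 and 7.76 at day 2, against 11.89 and 11.75 at day 0 (-4.15 ± 0.28, adjusted p = 3.42e-09). Klf5 fell less, by 2.86, and 1 of its probe sets gave 0.03. For all 3 Krüppel-like factors the day 2 arrays lay below the day 0 arrays.

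Tfcp2l1, a Lif-responsive factor of the same network, fell by 3.94, although another of its probe sets gave -0.09. Prdm14, a repressor of Fgf signalling and DNA methylation in stem cells, read 4.24 and 4.22 at day 2, against 7.78 and 7.58 at day 0 (-3.45, 10.9-fold). The nuclear receptor gene Nr0b1 fell by 3.30 and the T-box factor gene Tbx3 fell by 2.64. Over the 5 probe sets of Tbx3 the difference ran from -3.75 to -0.08. Tcl1, an Akt co-activator, fell by 4.84, Fbxo15, an F-box gene under Oct4 and Sox2, by 3.72, and Dppa3 (Stella, which protects methylation marks in the zygote) by 2.46. Esrrb, an orphan nuclear receptor, read 8.13 and 7.79 at day 2, against 9.44 and 9.59 at day 0 (-1.55 ± 0.18). Other probe sets of Esrrb fell by up to 4.58, so the probe set of highest mean gives a smaller difference for this gene. Zfp57, a zinc finger protein that guards imprints, fell by 1.43.

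Zfp42 (Rex1), a marker of undifferentiated cells, read 9.36 and 9.35 at day 2, against 12.45 in both arrays at day 0 (-3.10 ± 0.53, 8.56-fold, adjusted p = 0.000193). Nanog, a homeodomain factor at the centre of the network, read 9.72 and 9.64 at day 2, against 11.66 and 11.67 at day 0 (-1.99 ± 0.62, adjusted p = 0.0188). Both pairs were tight and far apart. The standard error is pooled over all 14 groups, and the Nanog call was lost on leaving out any 1 of the 4 arrays (differences of -2.03 to -1.95). The other 10 alternative fits kept the Nanog call, with a lowest limma adjusted p of 1.55e-11. The members that were not called were Dppa5a, a stem cell RNA-binding protein gene, at 13.20 and 13.25 at day 2 against 13.55 and 13.56 at day 0, and Gbx2, a homeobox gene, at 5.31 and 5.04 at day 2 against 6.38 and 5.91 at day 0.

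Promoters of these 2 marker genes are shown because both fell and because each carries a letter match to a pluripotency factor. The sequences are RefSeq windows of build GRCm38.p6, given 5′ to 3′ on the gene's strand and ending at the base before the annotated start, with a motif match in capitals. Zfp42 lies at chr8:43307010-43307259 on the minus strand and Nanog at chr6:122707315-122707564 on the plus strand.
Zfp42: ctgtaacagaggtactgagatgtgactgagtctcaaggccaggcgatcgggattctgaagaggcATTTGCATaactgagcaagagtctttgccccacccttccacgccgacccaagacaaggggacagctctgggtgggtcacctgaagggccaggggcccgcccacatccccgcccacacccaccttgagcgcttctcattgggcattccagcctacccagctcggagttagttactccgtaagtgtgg
Nanog: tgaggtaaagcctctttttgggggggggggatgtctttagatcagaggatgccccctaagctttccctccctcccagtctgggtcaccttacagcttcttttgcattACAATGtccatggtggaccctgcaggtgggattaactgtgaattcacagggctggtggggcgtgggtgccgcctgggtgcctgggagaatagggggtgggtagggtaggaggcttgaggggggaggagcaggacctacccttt
The capitals mark the octamer ATTTGCAT, bound by Oct factors, in Zfp42 (first base at -186 from the start) and the Sox half-site ACAATG in Nanog (first base at -143). Both strands were searched in windows from 250 bases before to 50 after each start. A second annotated start of Nanog places the same site at -67. Of 38 windows of 25 anchor genes, the octamer was in 1 and the Sox half-site in 5. The half-site windows were those of Esrrb, Lef1, Nanog and Pou5f1, of which Lef1 rose and Pou5f1 was not called. Other motifs were searched too and are not shown. The octamer was found in 1.74% of all 32851 RefSeq windows, in 1.24% of windows of genes tested, in 1.47% of windows of genes at least 2-fold lower and in 1.99% of those at least 2-fold higher. The Sox half-site was found in 12.6% of all windows, in 7.87% of those of genes tested, and in 6.61% and 6.81% of those of lower and higher genes. A match is a description of letters, not of binding.

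**Figure D2:**
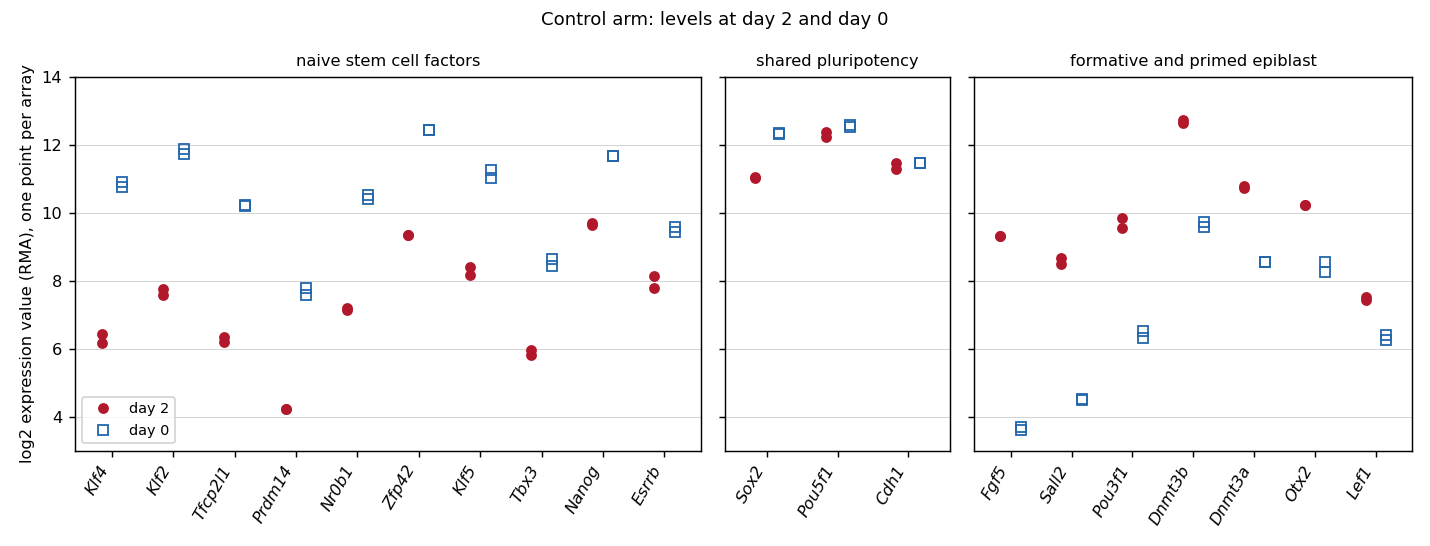
Log2 values of naive, shared and formative or primed epiblast genes, 1 point per array, with day 2 (filled circles) to the left of day 0 (open squares) for each gene. Both day 2 arrays lie below both day 0 arrays in the naive panel and above them in the epiblast panel, and Pou5f1 and Cdh1 are nearly level.

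Lif pathway genes fell with the naive network. Of 17 genes measured, 13 fell and 1 rose, against 15.4% and 16.6% of all genes, with a median of -1.88. Socs3 read 5.83 and 5.91 at day 2, against 10.97 and 10.96 at day 0 (-5.09 ± 0.23, 34.1-fold, adjusted p = 4.21e-11), and its other probe sets fell too. The receptor chains fell as well, Lifr by 2.07 and Il6st to a level 1.99-fold lower, and so did Stat3, by 0.92 (0.56 lower with the median over its probe sets). A probe set of Lifr gave 0.08, which sets the sign when the median over its probe sets is used. Among targets, Icam1 (an adhesion molecule) fell by 2.44, Bcl3 (a cofactor of NF-κB) by 2.38 and Pim1 (a kinase of the Pim family) by 2.34. Pim2 belongs to the same kinase family and rose, as given above. Myc, a transcription factor that drives growth, was the member that rose (1.25 ± 0.25).

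Formative and primed epiblast genes were the counterpart. Of 29 measured, 21 rose and 0 fell, against 16.6% and 15.4% of all genes, with a median of 1.25. Besides Fgf5, Pim2 and Sall2, the POU factor gene Pou3f1 (Oct6) read 9.55 and 9.85 at day 2, against 6.33 and 6.53 at day 0 (3.27 ± 0.30, 9.63-fold, adjusted p = 1.64e-07). Otx2, which directs enhancers of the formative state, read 10.24 and 10.25 at day 2, against 8.56 and 8.27 at day 0 (1.83 ± 0.24). Sox3, a Sox2 relative of the early epiblast, rose by 1.74 (1.03 with the median over its probe sets) and Lef1, a Wnt effector, by 1.13. The members that were not called included Nodal, the epiblast ligand of the Smad2 pathway, at 9.67 and 9.82 at day 2 against 9.42 and 9.34 at day 0, and the Ets factor gene Etv5, at 10.59 and 10.83 at day 2 against 10.88 and 10.83 at day 0.

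Of 19 genes shared by naive and primed cells, 3 rose and 3 fell, near the 16.6% and 15.4% of all genes, with a median of -0.13, but leaving out 1 of the 4 arrays left 0 to 2 that rose (0 without either second replicate). Pou5f1 read 12.24 and 12.39 at day 2, against 12.59 and 12.54 at day 0 (-0.25 ± 0.54, adjusted p = 0.791). Both day 2 arrays were lower, and in a fit of these 4 arrays alone the small fall of Pou5f1 was called (adjusted p = 0.00171). Sox2, its partner, read 11.07 and 11.02 at day 2, against 12.32 and 12.34 at day 0 (-1.29 ± 0.37, limma adjusted p = 0.0122). The Sox2 call was lost when any 1 of the 4 arrays was left out (differences of -1.31 to -1.26). It was kept in the other 10 alternative fits, with a lowest adjusted p of 1.03e-10. Also lower were the zinc finger gene Sall1, which fell by 1.42, and the Nodal-related ligand gene Gdf3, which fell by 1.02. Epcam, an epithelial adhesion gene, rose by 1.24, a call lost without either second replicate (adjusted p = 0.0513 and 0.0707), and Cdh1 (E-cadherin) read 11.29 and 11.47 at day 2 against 11.48 and 11.47 at day 0.

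DNA methylation genes moved in opposite directions. Over all genes 16.6% rose and 15.4% fell, and the number of rises on this list was near that share. Dnmt3b, a de novo methyltransferase, read 12.64 and 12.73 at day 2, against 9.74 and 9.57 at day 0 (3.03 ± 0.32, 8.17-fold, adjusted p = 8.87e-07). Dnmt3a, the other de novo enzyme, read 10.73 and 10.78 at day 2, against 8.57 and 8.54 at day 0 (2.20 ± 0.14, 4.60-fold). Its 5 probe sets gave differences from 0.30 to 2.40. Their cofactor Dnmt3l was 10.51 and 10.59 at day 2 against 10.97 and 10.91 at day 0, and was not called (adjusted p = 0.283). Tet2, an oxidase that starts removal of the mark, read 5.57 and 5.77 at day 2, against 9.56 and 9.49 at day 0 (-3.85 ± 0.21), and Tet1, another such oxidase, fell by 1.06, though 1 of its probe sets gave 0.22. The maintenance enzyme Dnmt1 fell by 0.51, a call lost without either first replicate (adjusted p = 0.0933 and 0.127). In all, 3 of 14 listed genes rose and 7 fell, with a median of -0.40; without either first replicate 4 fell.

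Of 28 chromatin and Polycomb genes, 4 rose and 10 fell, against 16.6% and 15.4% of all genes, with a median of -0.13. Polycomb genes were among both. Suz12 fell by 0.82, Eed by 0.72 and Ezh2, the methyltransferase of the same complex, by 0.61. The Ezh2 call was lost without day 0 replicate 2 or day 2 replicate 1 (adjusted p = 0.0929 and 0.0919). Cbx2, another Polycomb gene, rose by 0.64, a call lost without any 1 array except day 2 replicate 1 (adjusted p = 0.0589 to 0.131). The histone demethylase genes Kdm3a and Kdm5b fell by 0.99 and 0.87. Chd1, a remodeller of open chromatin, rose by 0.96 (without day 2 replicate 2, adjusted p = 0.0529) and Ehmt1, a histone H3 methyltransferase gene, by 0.39. Of the list, 2 rose without day 0 replicate 2 and 1 without day 2 replicate 2.

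**Figure D3:**
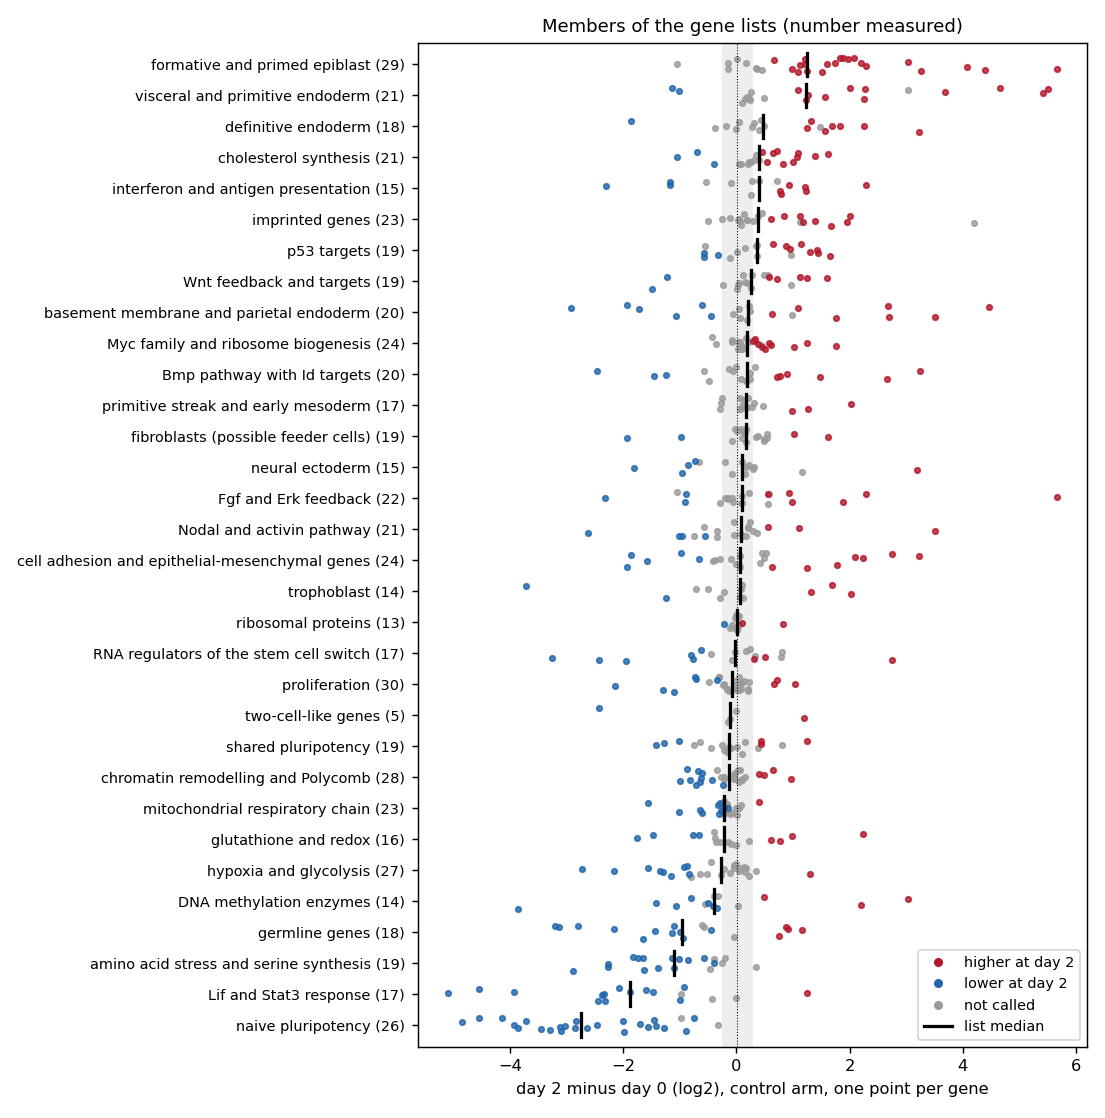
Day 2 minus day 0 difference (log2) of each member of the gene lists, 1 point per gene, in lists sorted by their median (black bars), with the number of measured members beside each name. The grey band is the middle range (between the lower and upper quartile) of all genes tested; the naive pluripotency list lies at the bottom with a median of -2.74 and the formative and primed epiblast list at the top with 1.25.

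The signalling lists held rises and falls, and their counts are to be read against the 16.6% higher and 15.4% lower over all genes. Of 22 Fgf and Erk genes, 6 rose and 3 fell (median 0.09), the falls near that share. Fgf15, a second Fgf ligand, rose by 2.29 and Dusp6, an Erk phosphatase, by 1.88, while Fgf4, the main Fgf ligand of stem cells, fell by 0.88 (1.50 lower with the median over its probe sets) and Egr1, an immediate early target of Erk, read 7.09 and 7.12 at day 2 against 9.50 and 9.35 at day 0 (-2.32 ± 0.33). Among 21 Nodal and activin genes, 3 rose and 4 fell (median 0.08), both near the share over all genes. Fst (follistatin, which traps activin) rose by 3.52, with its other probe set at 1.72. Skil, a Smad corepressor and target, rose by 1.11. Lefty2, a Nodal inhibitor, read 6.90 and 7.09 at day 2, against 9.84 and 9.40 at day 0 (-2.62 ± 0.40). Its relative Lefty1 read 11.14 and 11.18 at day 2, against 11.52 and 11.50 at day 0, and the Nodal co-receptor gene Tdgf1 read 11.81 and 11.77 at day 2, against 12.52 and 12.55 at day 0. Neither was called in the fit over all arrays, but both were called lower in a fit of the 4 arrays alone (adjusted p = 0.00027 for Lefty1 and 1.21e-08 for Tdgf1).

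Of 20 Bmp genes, 6 rose and 3 fell (median 0.18), the falls again near the share over all genes. Inhibitors of differentiation, Bmp targets that block basic helix-loop-helix factors, differed among themselves. Id2 read 9.60 and 9.56 at day 2, against 6.41 and 6.28 at day 0 (3.24 ± 0.23); the median over its probe sets gave 2.03 and another probe set 0.11. Id3 rose by 2.66 and Id1 by 1.47. Id4 was the opposite, at 5.20 and 5.74 at day 2 against 7.98 and 7.89 at day 0 (-2.46 ± 0.34). The ligand gene Bmp4 fell by 1.24. Among 19 Wnt genes, 5 rose and 2 fell (median 0.26), with the receptor gene Fzd2 up by 1.61 and the secreted inhibitors Sfrp1 and Notum at -1.49 and -1.23.

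Primitive and visceral endoderm genes rose in part, and their counts are set against the 16.6% higher and 15.4% lower over all genes. Of 21 measured, 11 rose and 2 fell, with a median of 1.23, but the number that rose was 6 without day 0 replicate 1 and 7 without day 2 replicate 1, and 0 fell without either (1 without day 0 replicate 2). Cubn read 9.83 and 9.95 at day 2, against 4.40 and 4.35 at day 0, and its co-receptor Lrp2 read 9.67 and 9.78 at day 2, against 6.13 and 5.97 at day 0. Amn (amnionless), which anchors cubilin, rose by 2.27, so all 3 genes of this endocytic complex rose. Of 5 primitive endoderm markers, 5 were above the median of all values at day 2 and 0 at day 0, with a summed level of 35.3 in both day 2 arrays against 23.4 and 23.9 at day 0. How much of the other differences moves with this cell type was not tested. Sox17, the target of the other arm's hairpin, read 6.01 and 6.17 at day 2 against 3.75 and 3.92 at day 0 (2.26 ± 0.80, limma adjusted p = 0.0386). Its call was lost when any 1 of the 4 arrays was left out (differences of 2.17 to 2.34). It was also lost with the median over its probe sets. The other 9 alternative fits kept it, with a lowest adjusted p of 2.52e-08. Gata6 rose by 1.56 and Gata4 by 1.09, calls that were lost without some single arrays (adjusted p = 0.0653 and 0.0681 for Gata6, 0.0721 and 0.0745 for Gata4), and 1 probe set of Gata6 gave -0.06.

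Ttr and Afp, secreted proteins of more mature visceral endoderm, were not called in the fit over all arrays. Ttr (transthyretin) read 7.16 and 7.33 at day 2, against 4.27 and 4.16 at day 0, with a pooled standard error of 1.26 and no call (adjusted p = 0.0766), though it was called in a fit of the 4 arrays alone (adjusted p = 5.27e-10). Afp (alpha-fetoprotein) read 4.74 and 4.73 at day 2 against 4.46 and 4.52 at day 0. Apoe, an apolipoprotein gene, was lower by 1.14, a call lost without either first replicate (adjusted p = 0.0758 and 0.0784). Of 18 definitive endoderm genes, 7 rose and 1 fell (median 0.46), but 4 rose without day 2 replicate 2, and 0 fell when any 1 of the 4 arrays was left out. Over all genes, 16.6% rose and 15.4% fell. The rises on this list included Cldn6 (3.23) and Krt18 (1.70), epithelial genes that other cell types express too. Cer1, an inhibitor of Nodal and Wnt in anterior endoderm, read 3.80 and 3.88 at day 2 against 3.78 and 3.93 at day 0, while Hhex, a homeobox gene of the same tissue, differed by -0.38 without a call.

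Basement membrane genes split into opposing groups. Of 20 measured, 7 rose and 6 fell (median 0.21), against 16.6% and 15.4% of all genes. Col4a1 read 9.26 and 9.42 at day 2, against 6.48 and 6.79 at day 0 (6.52-fold, adjusted p = 3.75e-06), and its partner chain Col4a2 rose by 2.68 and the laminin gene Lamb1 by 1.76. The nidogen linkers were lower, Nid1 at 6.34 and 6.22 at day 2 against 9.18 and 9.24 at day 0 (-2.93), and Nid2 fell by 1.93. Another probe set of Nid1 gave -0.35. Lama1 differed by 0.98 without a call.

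Of all genes, 32.1% were called, 16.6% higher and 15.4% lower, and the streak, neural and trophoblast lists are set against these shares. Of 17 streak and early mesoderm genes, 3 rose and 0 fell (median 0.18), and 1 rose when any 1 of the 4 arrays was left out. Eomes, a T-box gene of the epiblast and streak, read 6.95 and 7.30 at day 2 against 5.10 and 5.10 at day 0 (2.03 ± 0.36). Mixl1, a streak homeobox gene, read 4.51 and 4.72 at day 2 against 4.53 and 4.58 at day 0. Of 15 neural genes, 1 rose, Sox11 (3.19, or 1.60 with the median over its probe sets; 2 rose without day 2 replicate 2), and 4 fell (median 0.10), among them Tubb3, a neuronal tubulin gene, by 1.82 and Pax6, a neural factor, by 0.97 with 1 probe set at 0.06. Of 14 trophoblast genes, 3 rose and 2 fell (median 0.06), with the keratin genes Krt18 and Krt8 (1.31; without day 2 replicate 2, adjusted p = 0.0525) among the rises and Cdx2 at 5.55 and 5.38 at day 2 against 5.38 and 5.33 at day 0.

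Of 24 adhesion and epithelial-mesenchymal genes measured, 7 rose and 5 fell, with a median of 0.07 (without day 2 replicate 2, 4 rose). Over all genes tested, 16.6% rose and 15.4% fell. Cldn6, a tight junction gene, read 9.34 and 9.27 at day 2, against 6.02 and 6.13 at day 0, Cldn7 rose by 2.23 and Esrp1, an epithelial splicing regulator, by 2.76. Another tight junction gene, Cldn4, was lower, at 7.03 and 7.29 at day 2 against 9.31 and 8.74 at day 0 (-1.87 ± 0.61, limma adjusted p = 0.0254). The Cldn4 call was lost when any 1 of the 4 arrays was left out (differences of -2.15 to -1.58). It was kept in the other 10 alternative fits. Fn1 (fibronectin) fell by 1.93 and Vim (vimentin) by 0.98. Cdh2 (N-cadherin) rose by 1.78, reading 5.44 and 6.28 at day 2 against 3.96 and 4.19 at day 0, and that call was lost without day 0 replicate 1 or day 2 replicate 2 (adjusted p = 0.0579 and 0.107).

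Metabolic lists divided by pathway, and their counts are set against the 16.6% higher and 15.4% lower over all genes. Of 19 genes of amino acid stress and serine synthesis, 14 fell and 0 rose, with a median of -1.10. Chac1, a glutathione-degrading enzyme, read 6.92 and 7.09 at day 2, against 9.93 and 9.86 at day 0 (-2.89 ± 0.23), and Trib3, a pseudokinase, fell by 2.27. The transcription factor Atf4, which governs this response, fell by 1.10 with 1 probe set at 0.02, and Asns (asparagine synthetase) fell by 1.63, Slc7a5, an amino acid transporter gene, by 1.83 and Shmt2, a mitochondrial serine enzyme, by 1.75. Phgdh, the first enzyme of serine synthesis, differed by -0.21 without a call. Cholesterol synthesis went the other way: of 21 genes, 10 rose and 3 fell (1 without day 2 replicate 1), with a median of 0.41 and the enzyme genes Idi1 up by 1.62, Sqle by 1.38 and Hmgcs1 by 1.07. Of 27 hypoxia and glycolysis genes, 9 fell and 1 rose (median -0.27), and the rise was lost when any 1 of the 4 arrays was left out. Pfkp, a phosphofructokinase gene, fell by 2.72, the hexokinase genes Hk1 and Hk2 by 2.15 and 1.16, and Ldha (lactate dehydrogenase) read 13.01 and 13.04 at day 2 against 12.68 and 12.69 at day 0. Of 23 respiratory chain genes and regulators, 10 fell and 1 rose (median -0.21), with 6 falls without day 0 replicate 2 and 4 without day 2 replicate 1.

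Of 24 Myc family and ribosome biogenesis genes, 10 rose and 0 fell, against 16.6% and 15.4% of all genes (median 0.19), though 6 rose without either second replicate. Mycl rose by 1.76 (0.97 with the median over its probe sets) and Nop16, a nucleolar gene, by 1.01, while Mycn read 10.35 and 10.45 at day 2 against 10.47 and 10.50 at day 0 and Npm1 differed by 0.03. Of 30 proliferation genes, 3 rose and 6 fell (median -0.08). Mybl2, a cell cycle factor, fell by 2.15 and Cdt1, a replication licensing gene, by 1.29 with 1 probe set at 0.08, Ccnd2 (cyclin D2) rose by 1.03 and Pcna and Mcm7 differed by 0.05 and 0.01. Of 19 p53 targets, 8 rose and 3 fell (1 when any of the 4 arrays except day 2 replicate 2 was left out), with a median of 0.36. Pmaip1 (Noxa, which promotes apoptosis) rose by 1.65, and Btg2 and Ccng1 by 1.44 and 1.43.

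Most germline genes measured fell, whereas over all genes 15.4% fell and 16.6% rose. Of 18 germline genes, 11 fell and 4 rose (2 without day 0 replicate 2 or day 2 replicate 1), with a median of -0.97. Hormad1, a meiotic chromosome axis gene, read 3.55 and 3.56 at day 2, against 6.94 and 6.59 at day 0 (-3.21 ± 0.13). The growth factor receptor gene Kit fell by 2.16 and Dazl, an RNA-binding protein of germ cells, by 1.14. Mael, a gene of the piRNA pathway, was among those that rose, at 7.48 and 7.08 at day 2 against 6.24 and 6.00 at day 0 (1.17 ± 0.18). Among 17 RNA regulators 6 fell and 3 rose (median -0.02), with the falls of largest size in Khdc3 at -3.26, Mov10 at -2.43 and Ooep at -1.94. Another probe set of Mov10 gave -0.12, and the median over both -1.27.

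The same genes were followed through the control arm, as a description with no test. The arrays differ in more than the day: bioB read 9.21 to 9.49 on both arrays of days 0 and 2 and on day 4 replicate 1, but 6.49 to 7.26 on day 4 replicate 2 and all later arrays, and the 18S ribosomal RNA probes read 8.18 to 10.84 against 6.35 to 6.88. Differences by day beyond day 4 replicate 1 cannot be told apart from this shift between arrays. Zfp42 averaged 12.45, 9.35, 7.17, 6.04, 5.60, 5.53 and 6.25 from day 0 through days 2, 4 and 5 to days 6, 8 and 10, and Pou5f1 12.56, 12.32, 11.38, 9.09, 7.67, 7.16 and 7.03. Thus the Zfp42 level at day 2 lay well below its start, whereas that of Pou5f1 lay close to its start and was lower on the later days. Klf4 went 10.84, 6.29, 6.47, 7.37, 8.09, 9.43 and 9.37 over these days and Socs3 10.96, 5.87, 6.07, 6.26, 7.30, 8.07 and 8.35, so the means of both were lowest at day 2. In day 4 replicate 1, which lies with the early arrays, Klf4 read 6.05, below its day 2 mean, and Socs3 6.04.

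Other genes had their highest mean at day 2. Pou3f1 averaged 6.43, 9.70, 7.08, 6.05, 5.91, 5.91 and 6.00 over the same 7 days, and Dnmt3a 8.55, 10.76, 8.30, 8.04, 8.37, 8.42 and 8.21. Mael was 6.12, 7.28, 3.38, 3.12, 3.24, 3.30 and 3.33. In day 4 replicate 1 these 3 genes read 7.06, 8.32 and 3.26, all below their day 2 arrays, while Fgf5 had its highest mean at day 4 (10.14, against 9.31 at day 2; 10.36 in day 4 replicate 1) and Sox17 averaged 6.09 at day 2 and 10.48 at day 4 (10.30 in day 4 replicate 1).

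**Figure D4:**
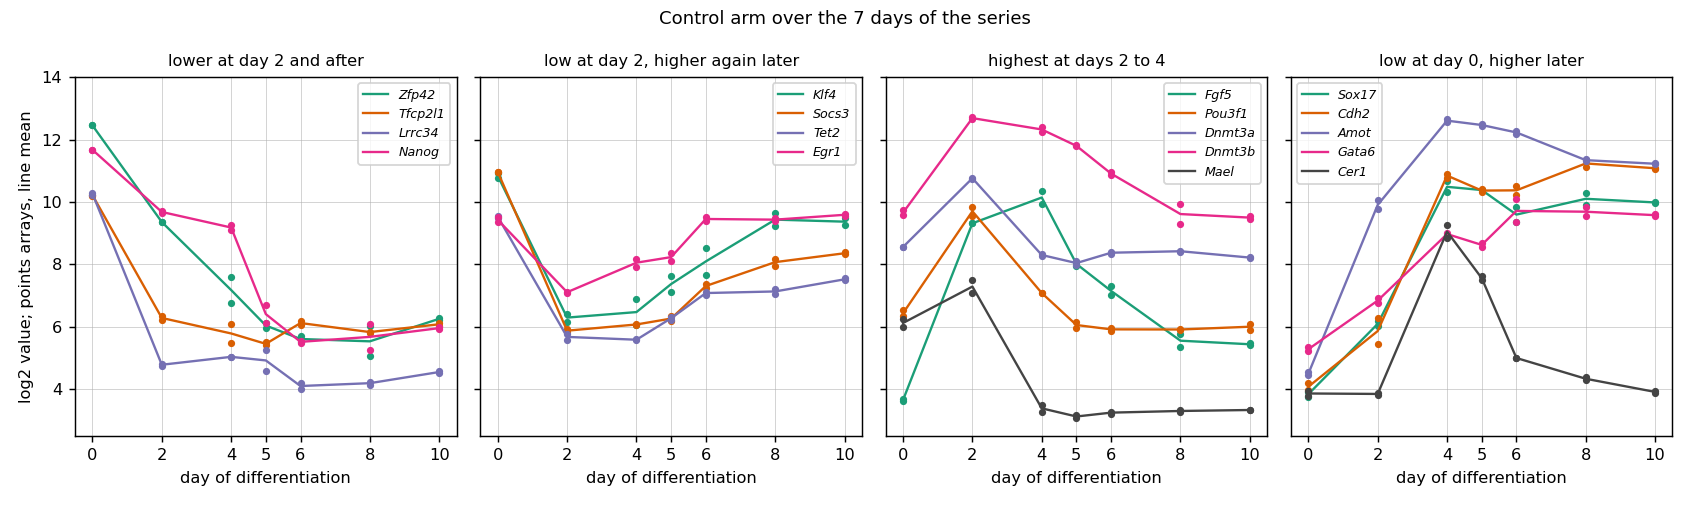
Log2 values in the control arm on each of the 7 days (horizontal axis), with points for arrays and lines for the mean of 2 arrays; all arrays after day 4 replicate 1 have lower spike-in levels. Zfp42, Tfcp2l1, Lrrc34 and Nanog are lower at day 2 and later, the means of Klf4 and Socs3 are lowest at day 2 and higher later, Pou3f1, Dnmt3a and Mael are highest at day 2, Sox17 and Cdh2 are low at day 0 and high from day 4 on, and Cer1 is highest at day 4.

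The change was compared with that of the Sox17 shRNA arm by the difference between the changes, so that a negative value means a smaller rise or larger fall in that arm. That arm's single day 0 array was taken to vary like the other groups. Of 13297 genes, 39 differed (0.293%), 21 with a higher and 18 with a lower change, and 1059 had an unadjusted p below 0.05; the count was 19 without Sox17 shRNA day 2 replicate 2, 22 without control day 2 replicate 2 and 24 without control day 0 replicate 2. On the lists, 2 of 26 naive pluripotency genes and 1 of 29 formative and primed epiblast genes differed, against 0.293% of all genes. For the network and epiblast genes named next the difference was not called. Fgf5 read 9.04 and 9.23 at day 2 and 4.47 at day 0 in the Sox17 shRNA arm, and the difference between arms was -0.99 ± 0.57 (adjusted p = 0.734). Socs3 differed between arms by -0.28 and Klf4 by -1.14 (adjusted p = 0.944 and 0.773). Sox17 itself read 5.12 and 4.48 at day 2 and 3.69 at day 0 in that arm, with a difference between arms of -1.15 ± 1.27 (adjusted p = 0.925).

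Dnmt3a differed, with 10.67 and 10.38 at day 2 and 9.63 at day 0 in the Sox17 shRNA arm, and a difference between arms of -1.30 ± 0.22 (adjusted p = 0.0102; 0.0595 without Sox17 shRNA day 2 replicate 2). Its day 2 arrays lay just below those of the control arm, and its day 0 array lay above both control arrays of that day (8.57 and 8.54). Some genes with large rises in the control arm were split between the day 2 replicates of the Sox17 shRNA arm. Cubn read 9.72 and 5.40 at day 2 and 6.02 at day 0 there (difference between arms -3.97 ± 1.85, adjusted p = 0.611), Srgn read 9.43 and 5.64 at day 2 and 6.67 at day 0, and Dab2 read 9.72 and 7.43 at day 2 and 6.47 at day 0. The first replicate was thus near the control arm for these genes and the second was not. Col4a1 had 9.05 and 7.62 at day 2 and 7.99 at day 0 (-2.36 ± 0.50, adjusted p = 0.0575), and was called without Sox17 shRNA day 2 replicate 1 (adjusted p = 0.000569). Lefty2, which fell in the control arm, read 6.91 and 7.50 at day 2 and 6.91 at day 0 in the Sox17 shRNA arm, and Id4 read 7.01 and 6.41 at day 2 and 6.65 at day 0. The differences between arms were 2.93 and 2.52, just short of a call (adjusted p = 0.0594 for both).

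**Figure D5:**
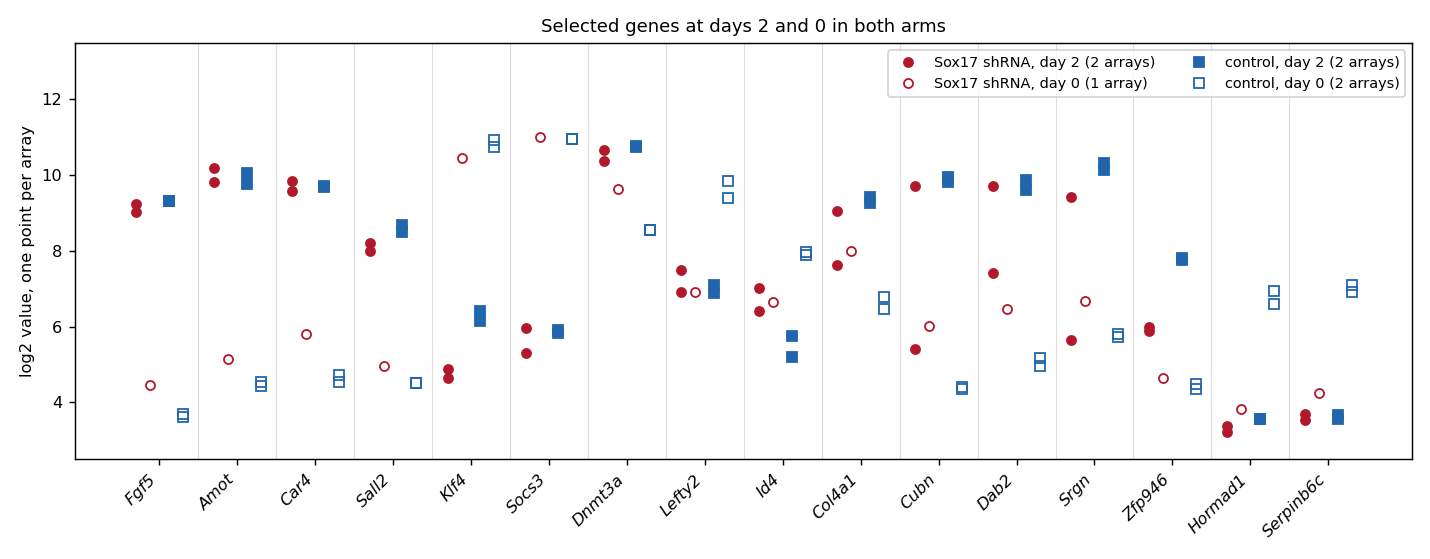
Log2 values of selected genes in both arms, 1 point per array: Sox17 shRNA at day 2 and day 0 (red circles, filled and open), then control at day 2 and day 0 (blue squares, filled and open). Fgf5 and Amot are higher and Klf4 is lower at day 2 in both arms, Cubn, Dab2 and Srgn are split between the 2 day 2 arrays of the Sox17 shRNA arm, and Hormad1 and Serpinb6c are low at day 0 only in the Sox17 shRNA arm.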

How the data were processed

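The deposited log2 values (45101 probe sets, 27 arrays) were made with RMA, per the submitters' processing notes; its version is not given in the sources used here. RMA quantile-normalizes arrays, so a difference tells how a gene moved against the rest, and levels near the probes' background understate folds. Probe sets with 1 gene symbol were kept if 2 or more arrays exceeded the overall median (5.53), and each of 13297 genes was read from its probe set of highest mean. The model (limma 3.58.1, R 4.3.3) held 1 mean per group for 14 groups and used all 27 arrays (13 residual degrees of freedom), variances were moderated with an intensity trend, and two-sided p-values were adjusted by Benjamini-Hochberg. On simulated data, 100 of the 13297 genes were changed by 1 log2 unit in this comparison and 100 by 2. The fit recovered 82% of those changed by 1 unit, with 11 false calls. The simulated noise was normal and independent, and far fewer genes changed than were called here, so 82% need not hold for the real arrays. P-values measure only the spread within groups, pooled over all 27 arrays. The spike-in shift falls inside both day 4 groups, so it lies within that pooled spread. There bioB read 9.49 and 6.99 in the control arm and 9.67 and 7.11 in the Sox17 shRNA arm. A fit of the 14 control arrays, which hold the control day 4 pair, called 5635 genes changed, against 4263 with all 27 arrays. How much spread this shift or the Sox17 shRNA arrays add was not tested.

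The arrays, gene lists and tests were chosen with earlier results of these data known. Genes were named by rule: listed anchor genes, the 12 largest non-overlapping rises and falls among called genes, up to 4 called members per list and direction, the 2 uncalled members of highest level per list, and 5 called genes per direction between arms. Lifr, Il6st, Stat3, Bcl3, Pim1, Sox3, Dnmt1, Ezh2, Lefty1, Tdgf1, Gata4, Amn, Lamb1, Lama1, Mixl1, Cdx2, Asns, Atf4, Shmt2, Ldha, Dazl, Mest, Nnat, Afp, Hk2, Col1a1, Col1a2, Col3a1, Dcn, Postn and Lum were named after their values were seen. The anchor gene T is not analysed here.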

Additional observations from a re-analysis of the deposited data

Results flagged for a closer look

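For 13 named genes the change at day 2 differed between the arms by the test of the difference itself (limma, adjusted p below 0.05; Sox17 shRNA arm minus control arm). Each value leans on the single day 0 array of the Sox17 shRNA arm, and its part in them was not tested. Negative differences were -2.33 for Serpinh1 (a collagen chaperone), -2.06 for Zfp946, -1.68 for Bgn (biglycan), -1.65 for Gap43, -1.62 for 4933417G07Rik, -1.32 for Usp17la, -1.30 for Dnmt3a and -0.785 for Nop16. Positive ones were 1.50 for Diras2, 1.75 for Stxbp5, 2.49 for Crxos, 2.68 for Hormad1 and 2.76 for Serpinb6c. Hormad1, Serpinb6c and Crxos read 3.83, 4.25 and 4.37 at day 0 in the Sox17 shRNA arm, against 6.94 and 6.59, 6.92 and 7.09, and 6.70 and 6.54 in the control arm, while at day 2 all read under 4 in both arms. On days 0 and 2 only their control day 0 arrays exceeded the filter level (5.53), so they may have passed through the group where they are high. With no filter Crxos was read from another probe set. It then differed by -0.097 in the control arm and by -0.315 between arms, and neither was called. The calls of Bgn, Dnmt3a, Gap43, 4933417G07Rik, Usp17la and Nop16 were lost on leaving out at least 1 array (adjusted p up to 0.0558, 0.0595, 0.089, 0.0559, 0.0627 and 0.145).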

How the results depend on the processing

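The number of genes changed at day 2 in the control arm, 4263, ranged from 3045 to 5646 over the alternatives; with the 4 arrays alone it was 5646, and with the 7 arrays of days 0 and 2 of both arms, which share the higher spike-in levels, 5436. Leaving out 1 array gave 3045 to 3224 changed, 1421 to 1770 higher, 1409 to 1693 lower, 490 to 595 at least 2-fold higher, 575 to 687 at least 2-fold lower, and 45.6% to 54.9% of calls higher. Centring each array on its median gave 2599 higher and 1794 lower (59.2% higher, against 51.9%). Between arms, 39 genes differed; the count was 77 (41 higher, 36 lower) with no filter and 17 (7 higher, 10 lower) with the stricter filter, and leaving out 1 array gave 19 to 46 (9 to 18 higher, 10 to 28 lower). Replicate numbers are shared by the groups. Over genes, the deviations of same-numbered arrays at day 2 and day 0 of the control arm had r = -0.0655, and the numbers were not used as pairs. That value rests on 4 arrays and cannot show whether the numbers mark a shared batch. At day 4, replicate 1 had the higher bioB level in both arms. With the replicate block 4512 genes were called, 4248 of them shared with the main fit. In the fit of the 4 arrays alone Pou5f1, Dppa5a, Gbx2, Dnmt3l, Lefty1, Tdgf1, Nodal, Lama1, Phgdh, Ldha, Ttr and Nnat gained a call. With the 14 control arrays alone, which hold the split control day 4 pair, 5635 genes were changed. In that fit Gbx2, Lefty1, Tdgf1, Nodal, Lama1, Ldha, Ttr and Nnat also gained a call. The sign turned for Lifr with the median over probe sets (0.078), for Crxos between arms with no filter (-0.315), and for genes near 0: Cer1 (0.036 with the probe set median, 0.045 centred, -0.091 to 0.062 on leaving out an array), Mcm7 (-0.0049 to 0.016) and Mixl1 (-0.043 to 0.169) on leaving out an array, and Socs3 between arms (-0.615 to 0.047). With the probe set median Gata6 and Sox17 lost their calls. Only 2 arrays per group limit the precision; the causes were not tested.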

Other observations

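Of 23 imprinted genes measured, 8 rose and 0 fell, against 16.6% and 15.4% of all genes, with a median of 0.38, against 0.02 over all genes tested. Cdkn1c, a cell cycle inhibitor, read 8.27 and 8.58 at day 2, against 6.52 and 6.30 at day 0 (2.02 ± 0.33), Peg3 rose by 1.96 and Mest by 1.17. Nnat (neuronatin) read 8.96 and 8.92 at day 2, against 4.91 and 4.57 at day 0, with a pooled standard error of 1.92 and no call in the fit over all arrays (adjusted p = 0.108), though it was called in a fit of the 4 arrays alone (adjusted p = 1.02e-11).

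The 2 lists below are set against the 16.6% higher and 15.4% lower over all genes. Of 15 interferon and antigen presentation genes measured, 6 rose and 3 fell (median 0.40). Psmb8, an immunoproteasome subunit, rose by 2.29 with another probe set at -0.07, and the transcription factor Irf1 by 1.24, while Ifitm1, a membrane protein of the interferon-induced family, read 9.90 and 9.95 at day 2, against 12.20 and 12.25 at day 0 (-2.31 ± 0.17). Of 16 glutathione and redox genes, 4 rose and 4 fell (median -0.22). Mgst1, a microsomal glutathione transferase, rose by 2.23 with another probe set at 0.01, whereas Txnip, which binds thioredoxin, fell by 1.76, mitochondrial superoxide dismutase (Sod2) by 1.48 and Gpx4, a lipid peroxide reductase, by 0.77.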
